A study of Homo sapiens with 4 samples.

Results

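The genes described here are 10 transcriptional output and feedback genes of ERK signalling, out of 23004 gene names in the deposited files. They are the ETS-family transcription factors ETV1, ETV4 and ETV5, the Sprouty and SPRED inhibitors SPRY2, SPRY4, SPRED1 and SPRED2, and the dual-specificity phosphatases DUSP4, DUSP5 and DUSP6. They were taken as a list because ETV4 was among the largest and steadiest differences between the same treated and untreated libraries, so the treatment difference of these genes is given as a description, with no test. RNA came from BEAS-2B, a line of immortalized human bronchial epithelial cells, left with 100 µM formaldehyde for 48 h (2 libraries) or untreated (2 libraries); nothing else separates the groups in the labels. The labels do not say whether the 2 libraries of a group came from separate cultures, so the spread between them may be technical. Expression is given in the FPKM that the authors deposited (fragments mapped, per kilobase of a transcript and scaled to library size), added up over all transcripts of a gene.

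Growth factor receptors at the cell surface switch on RAS, which starts the kinase relay of RAF, MEK and ERK. Active ERK enters the nucleus and alters transcription in a pair of waves, first of immediate early genes such as FOS and EGR1, and later of longer-lasting products such as the ETV factors. Many of its targets act back on it: Sprouty and SPRED proteins damp the signal at the level of RAS and RAF, and DUSP phosphatases take the activating phosphates off ERK itself. The level of these transcripts is therefore widely read as a record of how much ERK signal a cell has seen, and bronchial epithelial cells use the pathway to answer epidermal growth factor.

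Depth worked out to 14.2 and 22.2 M fragments (M, mega) in the formaldehyde libraries and to 16.8 and 26.5 M in the untreated libraries. The simple-epithelium keratins KRT7, KRT8 and KRT18 were high in every library, at 319 to 531 FPKM with formaldehyde and 140 to 291 FPKM untreated, while CDH1, the adhesion protein of most epithelia, stayed under 0.631 FPKM and the basal marker KRT5 was listed at 0 in all 4. The 5 mesenchymal markers, of which the filament protein VIM was the highest, summed to 1324 and 1102 FPKM with formaldehyde and to 1168 and 1294 FPKM untreated; VIM and ZEB1 were higher in both formaldehyde libraries, COL1A1 was lower in both, and FN1 and CDH2 overlapped. Endothelial markers summed to under 0.180 FPKM in each library. The 9 epithelial markers summed to 1340 and 1157 FPKM with formaldehyde and to 710 and 645 FPKM untreated. Of the 5 tested, 3 were higher in both formaldehyde libraries and 0 lower. Those 3 were KRT7, KRT8 and KRT18, which make up nearly all of the sums, while EPCAM and KRT14 overlapped. KRT19 was at most 0.378 FPKM, and TP63 was listed at 0 in all 4. The 6 leukocyte markers summed to 8.87 and 10.6 FPKM with formaldehyde and to 5.59 and 14.8 FPKM untreated. Among them CORO1A was higher in both formaldehyde libraries and CD14 overlapped. The 7 nuclear or unspliced RNAs found summed to 635 and 424 FPKM with formaldehyde and to 333 and 754 FPKM untreated. What part any of these has in the differences below was not tested. One library stood apart within its group. Untreated replicate 2 held 162 FPKM of FOS against 0.731 FPKM in untreated replicate 1, and 599.7 against 6.65 FPKM of EGR1. Values without that library are given below for the genes and lists that it moves most. These are bulk RNA samples, in which fewer cells of a kind and less RNA per cell cannot be told apart.

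Promoter sequence for 6 of the 10 genes was found in the RefSeq table (GRCh38.p14), which spans 250 bases before to 50 bases after a transcript start. The promoters of SPRY4 (chr5:142324198-142324497, minus strand) and DUSP6 (chr12:89352452-89352751, minus strand) are shown because both genes had formaldehyde levels above every untreated level and have 1 listed start each. Capitals mark GGAA, the core that ETS factors bind, or its reverse complement TTCC.

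SPRY4: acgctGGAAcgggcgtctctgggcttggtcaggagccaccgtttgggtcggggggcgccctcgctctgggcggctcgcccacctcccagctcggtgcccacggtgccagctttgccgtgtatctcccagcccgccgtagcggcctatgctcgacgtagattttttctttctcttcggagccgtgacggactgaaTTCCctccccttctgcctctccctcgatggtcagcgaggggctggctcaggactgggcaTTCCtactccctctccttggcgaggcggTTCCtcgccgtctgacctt

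DUSP6: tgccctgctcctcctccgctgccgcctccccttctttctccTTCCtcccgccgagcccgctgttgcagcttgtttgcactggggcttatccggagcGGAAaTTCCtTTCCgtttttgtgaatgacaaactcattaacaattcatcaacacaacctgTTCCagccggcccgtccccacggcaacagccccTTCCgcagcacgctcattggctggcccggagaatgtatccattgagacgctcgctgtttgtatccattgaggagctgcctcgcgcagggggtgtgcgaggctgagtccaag

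The SPRY4 promoter held 4 such cores and the DUSP6 promoter 6, of which 3 lie side by side; the median over all 35116 promoters in the table was 3, and 95.5% held at least 1. The longer motifs CCGGAAG and CAGGAAG, which contain the core, and the motifs TGACGTCA, TGACGT (contained in TGACGTCA) and TGACTCA, searched on both strands, were not found in either window. Over all promoters they occurred in 10.3%, 12.7%, 1.85%, 7.98% and 4.95% of windows in that order. Among the 14 promoters of the 6 genes, CAGGAAG was found in 3, 1 each of SPRED1, SPRED2 and SPRY2, TGACGT and TGACTCA in 1 each, of SPRED2, and CCGGAAG and TGACGTCA in 0. These are matches of letters, not measured binding. The windows are placed on GRCh38.p14 and the expression values on hg19. Whether a printed window lies at the start of the transcripts with FPKM values was not checked.

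Of the 10 genes, 9 had a mean of at least 1 FPKM over the 4 libraries and entered the comparison across genes. SPRY4 passed that limit through its formaldehyde libraries, being under 1 FPKM in both untreated ones. All 9 had a higher mean with formaldehyde, and in 7 of the 9 both formaldehyde libraries lay above both untreated ones, against 16.2% of the 12407 genes tested. In 0 of the 9 did both lie below, against 10.7% of all genes tested. Because the list was chosen on this contrast, nothing is read from these counts. The median log2 fold change, on the scale of log2(FPKM + 1), which understates the change of low genes, was 0.95 over the 9 and 0.03 over all genes tested. It was 0.50 over the 9 when formaldehyde replicate 1 was left out.

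**Figure D1:**
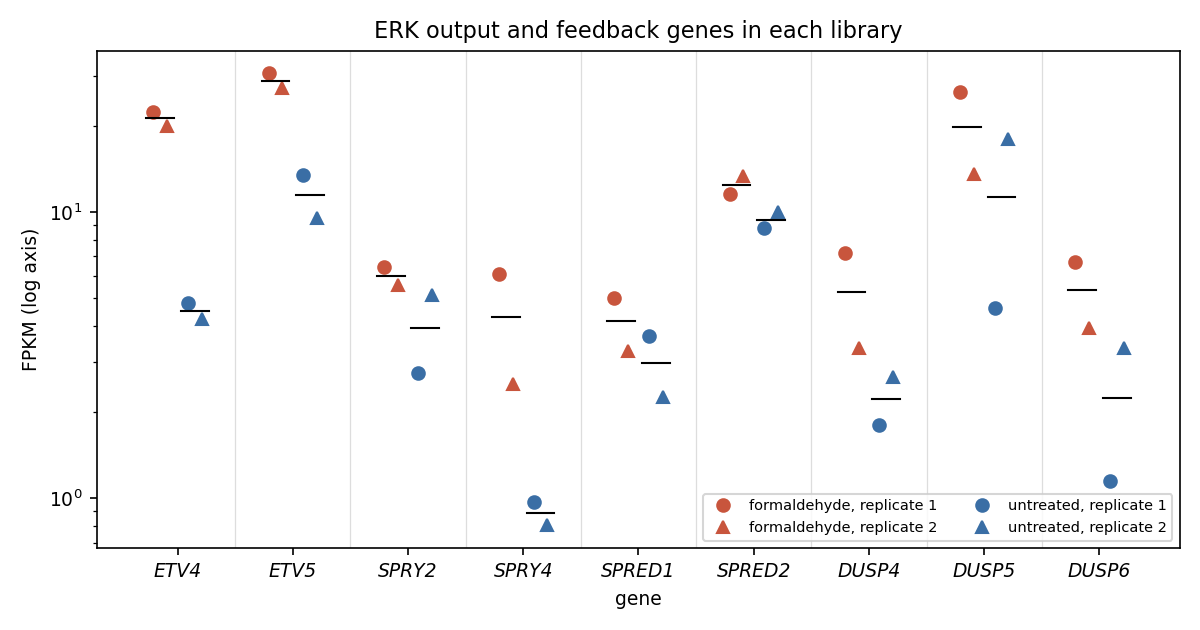
FPKM (log axis) of the 9 ERK output and feedback genes at or above a mean of 1 FPKM, in each of the 4 libraries; points are libraries and black lines are group means. ETV4, ETV5 and SPRY4 show the clearest distance between the groups, with lowest ratios of 4.17, 2.02 and 2.59, while DUSP5 and SPRED1 overlap.

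The ETV genes encode the PEA3 group of ETS transcription factors, which carry ERK output on to further target genes. ETV4 (chromosome 17, hg19, 41605211 to 41623762, minus strand) stood at 22.5 and 20.03 FPKM in the formaldehyde libraries and at 4.80 and 4.23 FPKM in the untreated libraries. The groups were far apart and the libraries within each were close together, differing by 1.12 times with formaldehyde and 1.13 times untreated. The ratio of means was 4.71, and any formaldehyde library exceeded any untreated one by 4.17 to 5.31 times. The log2 fold change was 2.01 ± 0.20 (SE), and between 1.93 and 2.09 when each library was left out in turn. Here and below, SE is limma's moderated value, which draws on the spread of all genes tested.

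ETV5 (chromosome 3, 185764106 to 185826901, minus strand) had the highest mean of the 10 in both groups, although untreated DUSP5 was close to it and above it in replicate 2. ETV5 stood at 30.5 and 27.1 FPKM with formaldehyde and 13.5 and 9.58 FPKM untreated. The groups did not overlap, nor did the bounds that the authors' software gave for each library, which cover counting error: the lowest formaldehyde bound was 26.006 FPKM and the highest untreated bound 14.4 FPKM. Means were 28.8 ± 2.42 FPKM with formaldehyde and 11.5 ± 2.74 FPKM untreated (SD, n = 2 each), a ratio of 2.504. ETV1, the third factor of the group, was hardly detected, at 0.0584 and 0 FPKM with formaldehyde and 0.0202 and 0.0188 FPKM untreated. Those values stand for at most 5 fragments in a library, so no difference was detectable at this depth, and ETV1 was not tested.

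ETV4 is listed with 2 RefSeq transcripts that share 12 exons and differ in the first. NM_001986 begins with an exon of 77 nt (chromosome 17, 41623229 to 41623305) and NM_001079675 with an upstream exon of 210 nt (41623553 to 41623762). NM_001986 stood at 17.2 and 14.1 FPKM with formaldehyde and at 1.52 and 2.33 FPKM untreated, so that all of its formaldehyde bounds lay above its untreated ones. NM_001079675 stood at 5.28 and 5.91 FPKM with formaldehyde and at 3.28 and 1.91 FPKM untreated. It too was higher in both formaldehyde libraries, but by less, and its bounds overlapped between the groups: the lower bound in formaldehyde replicate 1 was 3.62 FPKM and the upper bound in untreated replicate 1 was 3.96 FPKM.

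The share of ETV4 that was assigned to NM_001986 was 76.5% and 70.5% with formaldehyde and 31.7% and 54.9% untreated. The groups did not overlap, and their means were 73.5% ± 4.25 and 43.3% ± 16.4 (SD, n = 2 each), a difference of 30.2 percentage points, or of 18.6 when untreated replicate 1 was left out. NM_001986 was the higher of the 2 transcripts in both formaldehyde libraries and in untreated replicate 2, and NM_001079675 in untreated replicate 1. By untreated means NM_001079675 was the higher, and its share differs by the same amount downwards, -30.2 points. Because the share is made from the same transcript values that chose ETV4, it is given with no test. Among 4984 tested genes with at least 2 transcripts, the share of the highest transcript did not overlap between the groups, higher with formaldehyde, in 12.1% and lower in 12.3%, and nothing is read from that beside ETV4. The assignment rests on reads in or next to those first exons, and was made by the authors' software.

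**Figure D2:**
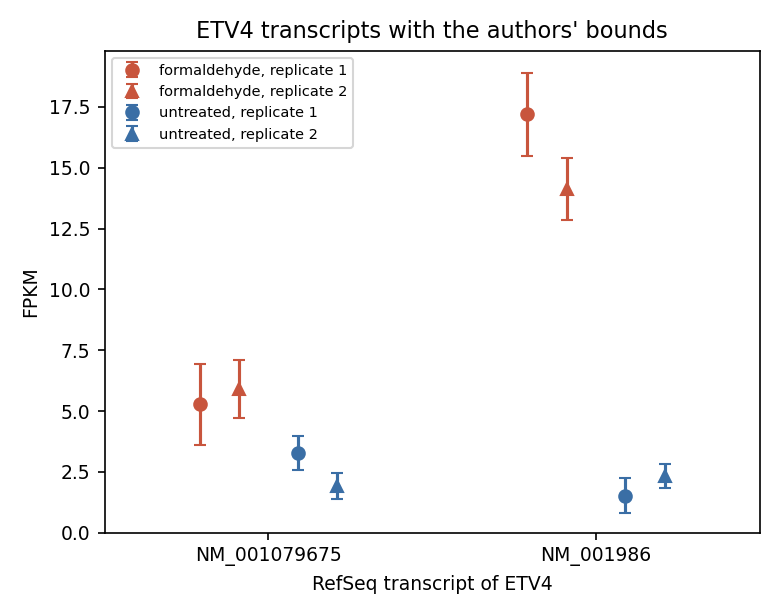
FPKM of the 2 RefSeq transcripts of ETV4 in each library, with bars for the lower and upper bound that the authors deposited. NM_001986 stands at 17.2 and 14.1 FPKM with formaldehyde and at 1.52 and 2.33 FPKM untreated, a wider gap than that of NM_001079675.

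Sprouty proteins are induced by growth factors and block the step from receptor to RAF. SPRY4 (chromosome 5, 141689992 to 141704620, minus strand), for which a promoter window is printed above, stood at 6.07 and 2.51 FPKM with formaldehyde and at 0.968 and 0.806 FPKM untreated. The groups did not overlap, although the formaldehyde libraries differed from each other by 2.42 times. The ratio of means was 4.84, similar in size to that of ETV4, with a log2 fold change of 1.40 ± 0.39 (SE). Without formaldehyde replicate 1 the log2 fold change was 0.90 and without formaldehyde replicate 2 it was 1.91. A second SPRY4 transcript with an additional exon of 51 nt, NM_030964, was assigned 23.0% of the gene in formaldehyde replicate 1 and about 0.0111% or less in the other libraries.

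SPRY2 (chromosome 13, 80910112 to 80915086, minus strand) stood at 6.42 and 5.56 FPKM with formaldehyde and at 2.75 and 5.15 FPKM untreated. The groups just failed to overlap, since formaldehyde replicate 2 exceeded untreated replicate 2 by 1.08 times and their bounds overlapped (4.84 to 6.29 and 4.51 to 5.79 FPKM). Its log2 fold change of 0.54 ± 0.31 (SE) was 0.18 without untreated replicate 1 and 0.90 when untreated replicate 2 was left out.

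SPRED proteins resemble Sprouty in their tail and bring neurofibromin, the product of NF1, to the membrane, where it turns RAS off. SPRED2 (chromosome 2, 65537985 to 65659656, minus strand) stood at 11.6 and 13.4 FPKM with formaldehyde and 8.82 and 10.01 FPKM untreated. The groups did not overlap, but the ratio of means was 1.32, and the log2 fold change of 0.37 ± 0.20 (SE) stayed between 0.27 and 0.47 when each library was left out. SPRED1 (chromosome 15, 38545052 to 38649450, plus strand) stood at 5.02 and 3.28 FPKM with formaldehyde and 3.69 and 2.26 FPKM untreated. Here the groups overlapped, with formaldehyde replicate 2 below untreated replicate 1. Its means, 4.15 ± 1.23 and 2.97 ± 1.01 FPKM (SD, n = 2 each), differed by less than the libraries within either group. The log2 fold change of 0.38 ± 0.31 (SE) was 0.13 without formaldehyde replicate 1 and 0.62 without replicate 2, 0.64 when untreated replicate 1 was left out and 0.12 when untreated replicate 2 was.

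The 3 phosphatases remove the activating phosphates from ERK: DUSP6 acts mainly in the cytoplasm, DUSP5 in the nucleus, and DUSP4 in the nucleus on other stress-activated kinases as well. DUSP6 (chromosome 12, 89741837 to 89746296, minus strand) stood at 6.72 and 3.94 FPKM with formaldehyde and at 1.15 and 3.35 FPKM untreated. The groups did not overlap, but formaldehyde replicate 2 was only 1.18 times untreated replicate 2, and untreated replicate 1 rested on about 51 fragments. The ratio of means was 2.37 and the log2 fold change 1.01 ± 0.43 (SE). Leaving out untreated replicate 1 gave 0.51, and leaving out untreated replicate 2 gave 1.52. In untreated replicate 1, 40.6% of DUSP6 was assigned to NM_022652, the transcript that lacks the middle exon of 438 nt, against 0.00241% or less in each other library.

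DUSP4, on chromosome 8, stood at 7.19 and 3.34 FPKM with formaldehyde and at 1.80 and 2.65 FPKM untreated. Both formaldehyde libraries were above both untreated ones, by 1.26 times at the nearest and 3.998 times at the farthest. Its log2 fold change of 0.90 ± 0.38 (SE) was 0.44 without formaldehyde replicate 1 and 1.36 without formaldehyde replicate 2, and 0.71 when untreated replicate 1 was left out and 1.09 when untreated replicate 2 was.

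DUSP5 (chromosome 10, 112257625 to 112271302, plus strand) stood at 26.3 and 13.5 FPKM with formaldehyde and at 4.61 and 17.99 FPKM untreated. The groups overlapped, because untreated replicate 2 was above formaldehyde replicate 2 and 3.90 times untreated replicate 1. The means were 19.9 ± 8.995 FPKM with formaldehyde and 11.3 ± 9.46 FPKM untreated (SD, n = 2 each). The log2 fold change was 0.95 ± 0.66 (SE), with 0.07 when untreated replicate 1 was left out and 1.83 when untreated replicate 2 was. It was 0.50 without formaldehyde replicate 1.

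**Figure D3:**
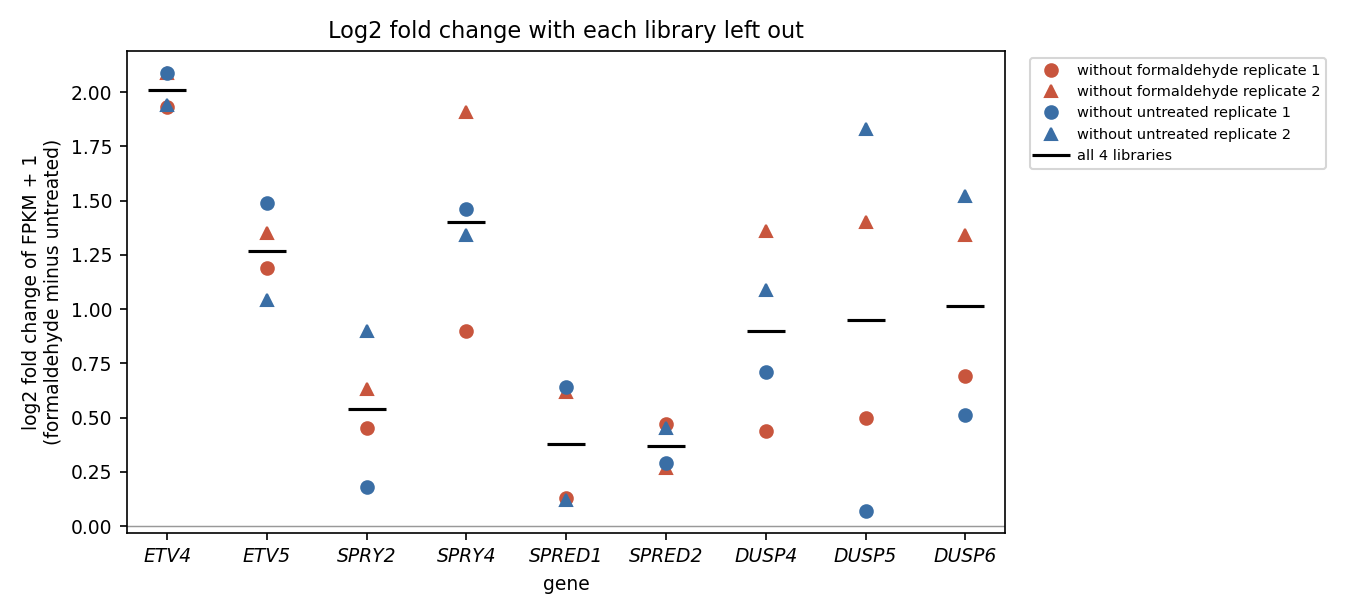
Log2 fold change of FPKM + 1, formaldehyde minus untreated, for each of the 9 genes with all 4 libraries (black bar) and with each library left out (points). ETV4 stays between 1.93 and 2.09, while DUSP5 spans 0.07 to 1.83.

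The 9 genes thus differed in how the untreated libraries lay. SPRY2, SPRED2, DUSP4, DUSP5 and DUSP6 were higher in untreated replicate 2 than in replicate 1, and ETV4, ETV5, SPRY4 and SPRED1 were lower in it. With formaldehyde, 8 of the 9 were higher in replicate 1 than in replicate 2, the exception being SPRED2. Over all genes tested, the median log2 difference was 0 for formaldehyde replicate 1 minus 2 and -0.10 for untreated replicate 2 minus 1. Against the untreated mean, the median of the 9 stood at 1.35 on the log2 scale in formaldehyde replicate 1 and at 0.50 in replicate 2, beside 0.03 in each over all genes tested.

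By level, formaldehyde-treated cells ranked the genes as ETV5, ETV4, DUSP5, SPRED2, SPRY2, DUSP6, DUSP4, SPRY4, SPRED1 and ETV1. In that order ETV5 lay above ETV4, DUSP5 above SPRED2, SPRED2 above SPRY2 and SPRED1 above ETV1 in both libraries, and the other neighbours overlapped. Untreated cells ranked them as ETV5, DUSP5, SPRED2, ETV4, SPRY2, SPRED1, DUSP6, DUSP4, SPRY4 and ETV1. There SPRED2 lay above ETV4, DUSP4 above SPRY4 and SPRY4 above ETV1 in both libraries, and the other neighbours overlapped. ETV4 thus held the second place with formaldehyde, at 21.3 ± 1.73 FPKM, and the fourth untreated, at 4.52 ± 0.400 FPKM (SD, n = 2 each).

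Other genes known to depend on MEK and ERK were compared in the same libraries by limma's moderated test across all 12407 genes, with Benjamini-Hochberg adjustment. Of 20 tested, 0 passed the adjusted threshold of 0.05 (0.153% of all genes did), and 6 had an unadjusted p under 0.05, all 6 higher with formaldehyde, against 1.93% of all genes higher and 0.838% lower under that threshold. Both formaldehyde libraries were above both untreated ones in 9 of the 20 and below in 2, beside 16.2% and 10.7% of all genes. The median log2 fold change was 0.58. The 9 include HMGA2 and AREG (named after their values were seen), which reached a mean of 1 FPKM only through formaldehyde libraries. For AREG it was formaldehyde replicate 1 alone. Without untreated replicate 2 the count above became 16 of 20, beside 29.7% of all genes, and the median 1.16. The median was 0.36 when untreated replicate 1 was left out.

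FOSL1, a FOS-family partner of JUN that is stabilized by ERK, stood at 152 and 105 FPKM with formaldehyde and at 31.9 and 42.3 FPKM untreated (log2 fold change 1.76 ± 0.28 SE, limma adjusted p = 0.50). The groups were well apart, although the gene did not pass. PHLDA1 stood at 25.3 and 12.2 FPKM with formaldehyde and at 4.55 and 5.01 FPKM untreated. EPHA2, an ephrin receptor, stood at 143 and 72.3 FPKM with formaldehyde and at 34.03 and 43.96 FPKM untreated. CCND1, the cyclin that carries growth factor signals into the cell cycle, stood at 129 and 34.7 FPKM with formaldehyde and at 14.6 and 3.67 FPKM untreated. The groups did not overlap in any of these 3 genes, and limma gave each an adjusted p = 0.9999. EPHA4 and GEM, named after their values were seen, were the 2 genes with both formaldehyde libraries below. EPHA4 stood at 1.95 and 1.25 FPKM with formaldehyde and at 2.51 and 2.42 FPKM untreated. GEM stood at 1.19 and 1.66 FPKM with formaldehyde and at 2.30 and 2.31 FPKM untreated.

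Of the 20 genes, 5 were highest in untreated replicate 2 and lowest in untreated replicate 1, namely FOS, EGR1, IER3, MYC and LIF, chosen after their values were seen. That order held for 7.5% of all genes tested and for 0 of the 9 members. It cannot occur in the 7 members with both formaldehyde libraries above both untreated ones, so nothing is read from that 0. FOS stood at 1.55 and 1.70 FPKM with formaldehyde and at 0.731 and 162 FPKM untreated. EGR1 stood at 9.59 and 25.2 FPKM with formaldehyde and at 6.65 and 599.7 FPKM untreated. MAFF, another early-response gene of the list, did not have that order, at 36.7 and 37.6 FPKM with formaldehyde and 14.2 and 25.9 FPKM untreated. MAFF, DUSP1 and DUSP8 are named here after their values were seen. DUSP1, an immediate early phosphatase of stress-activated kinases outside that list, had it, at 48.6 and 29.2 FPKM with formaldehyde and 15.3 and 378 FPKM untreated. DUSP8 had it too, at 4.35 and 4.16 FPKM with formaldehyde and 3.52 and 7.71 FPKM untreated. The members with a higher value in untreated replicate 2 were thus found beside a library in which FOS was 221 times and EGR1 90.2 times the level of the other untreated library. What part that library's immediate early genes have in the values of SPRY2, SPRED2, DUSP4, DUSP5 and DUSP6 was not tested.

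**Figure D4:**
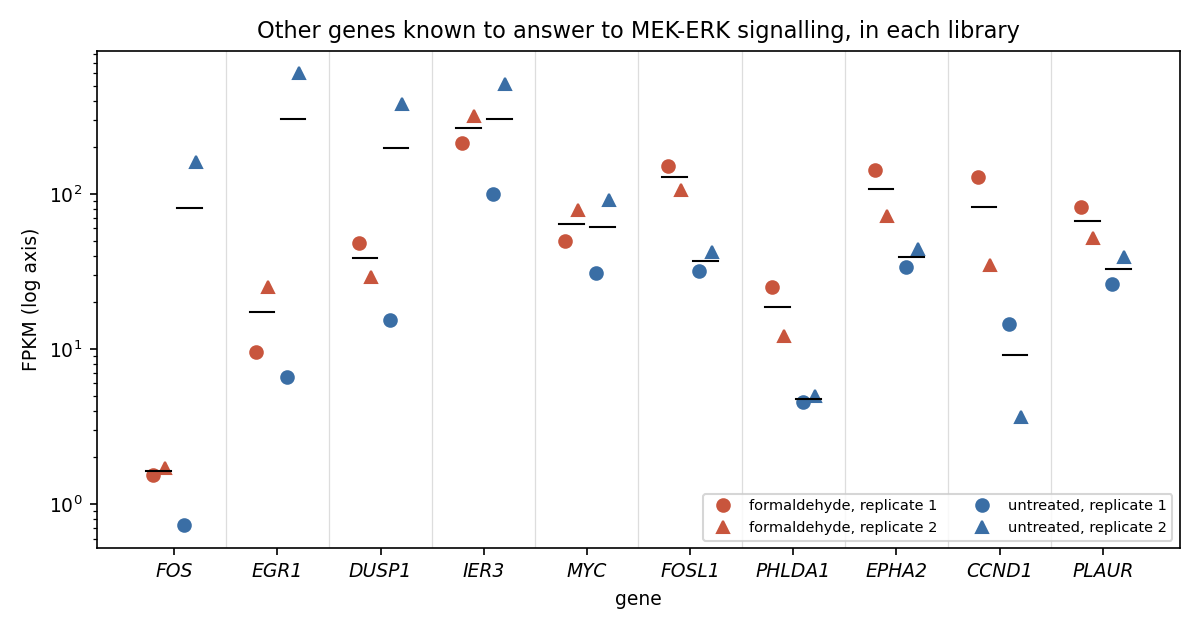
FPKM (log axis) of 10 other genes known to answer to MEK and ERK, chosen for display after their values were seen, in each library; black lines are group means. FOS, EGR1 and DUSP1 stand at 162, 599.7 and 378 FPKM in untreated replicate 2. FOSL1, PHLDA1, EPHA2, CCND1 and PLAUR are higher in both formaldehyde libraries than in both untreated ones. EPHA4 and GEM, which are lower in both, are not shown. DUSP1 is from the list of other Sprouty, SPRED and DUSP genes.

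The remaining Sprouty, SPRED and DUSP genes lay on both sides of 0. Of 12 found, 9 were tested, 4 had a higher and 5 a lower mean with formaldehyde, and the median log2 fold change was -0.05. That median turned to 0.04 without formaldehyde replicate 1, 0.17 without formaldehyde replicate 2 and 0.22 without untreated replicate 2. DUSP7, a cytoplasmic ERK phosphatase close to DUSP6, stood at 11.3 and 8.11 FPKM with formaldehyde and at 6.64 and 5.55 FPKM untreated. It was the 1 gene of the 9 with both formaldehyde libraries above both untreated ones. DUSP2, a nuclear phosphatase of immune cells, stood at 3.23 and 1.43 FPKM with formaldehyde and at 4.86 and 10.7 FPKM untreated, and was the 1 gene with both below. Each is 11.1% of the 9, beside 16.2% of all genes above and 10.7% below. DUSP14 stood at 66.9 and 39.97 FPKM with formaldehyde and 40.6 and 30.5 FPKM untreated, and SPRED3 at 2.02 and 1.43 FPKM with formaldehyde and 0.547 and 1.43 FPKM untreated. None of the 9 passed (limma adjusted p = 0.9999 for each), and 1, DUSP2, had an unadjusted p under 0.05, lower with formaldehyde, as did 0.838% of all genes. SPRY1, SPRY3 and DUSP9 were under the mean of 1 FPKM.

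Among 15 tested ETS factors and ETS repressors outside the PEA3 group, 4 genes were above in both formaldehyde libraries and 1 below, that is 26.7% and 6.67%, beside 16.2% and 10.7% of all genes. The median log2 fold change was 0.09, and was 0.18 without formaldehyde replicate 1, 0.16 when untreated replicate 1 was left out and 0.13 when untreated replicate 2 was. ELK3, a ternary complex factor that ERK phosphorylates, stood at 30.3 and 23.996 FPKM with formaldehyde and at 14.2 and 16.1 FPKM untreated. FLI1 stood at 10.5 and 8.74 FPKM with formaldehyde and at 5.28 and 5.13 FPKM untreated. ELF3, an epithelial ETS factor, stood at 0.624 and 6.19 FPKM with formaldehyde and at 9.29 and 14.4 FPKM untreated, and was the gene below in both. ETS1, itself a direct substrate of ERK, stood at 48.8 and 30.9 FPKM with formaldehyde and overlapped with 30.9 and 21.8 FPKM untreated. CIC, the repressor that ERK signalling removes from the ETV genes, stood at 16.1 and 20.3 FPKM with formaldehyde and 17.9 and 24.6 FPKM untreated (named after its values were seen). None of the 15 passed by limma across all genes (adjusted p = 0.9999 for each), and 2, FLI1 and ELK3, had an unadjusted p under 0.05, both higher with formaldehyde, as did 1.93% of all genes.

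The receptors and the relay itself were near 0 as a list. Over 32 tested genes from receptors to ERK and its kinase targets, 16 had a higher and 16 a lower mean, with a median log2 fold change of -0.02. It turned to 0.05 without formaldehyde replicate 2 and to 0.16 without untreated replicate 1, and was -0.09 without formaldehyde replicate 1 and -0.14 without untreated replicate 2. Both formaldehyde libraries were above both untreated ones in 3 and below in 5. That is 9.38% and 15.6%, beside 16.2% and 10.7% of all genes. MAP2K1, which encodes the kinase MEK1, stood at 46.6 and 42.8 FPKM with formaldehyde and at 36.5 and 33.5 FPKM untreated. FGFR3, a fibroblast growth factor receptor, stood at 1.96 and 3.18 FPKM with formaldehyde and at 4.04 and 5.90 FPKM untreated. PDGFRB stood at 7.40 and 22.2 FPKM with formaldehyde and 21.8 and 29.97 FPKM untreated, and ERBB3 at 2.14 and 7.32 FPKM with formaldehyde and 5.83 and 10.5 FPKM untreated. None of the 32 passed, and 0 had an unadjusted p under 0.05, against 2.76% of all genes (limma, adjusted p = 0.9999 for each).

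**Figure D5:**
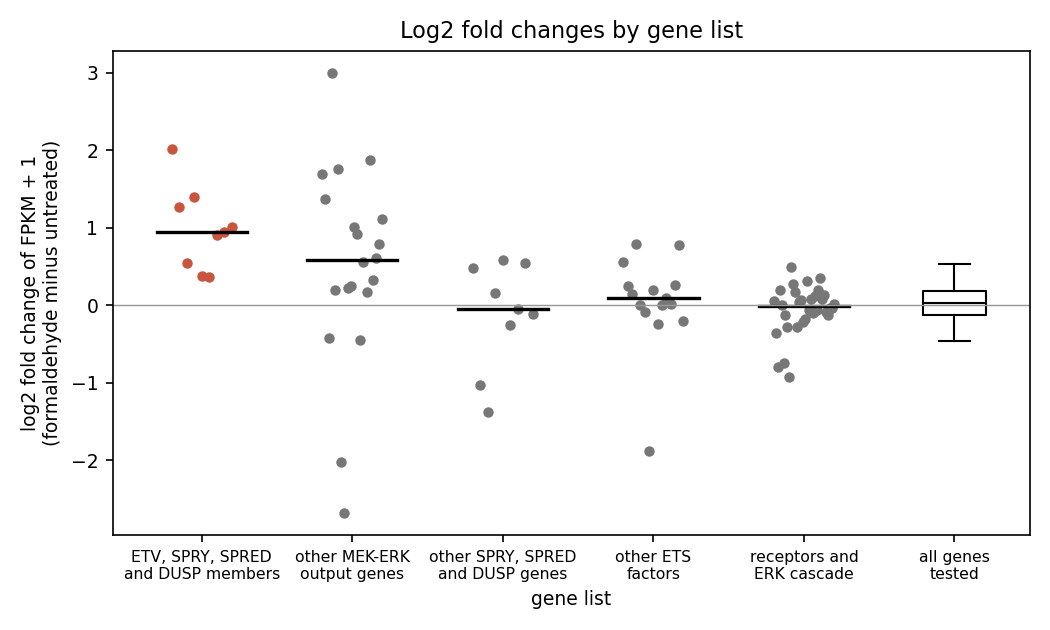
Log2 fold change of FPKM + 1, formaldehyde minus untreated, for each tested gene of 5 lists; points are genes, black lines are list medians, and the box for all genes tested spans the quartiles with whiskers at the 5th and 95th percentiles. The medians are 0.95 for the ETV, SPRY, SPRED and DUSP members, 0.58 for other output genes, -0.05 for other SPRY, SPRED and DUSP genes, 0.09 for other ETS factors and -0.02 for receptors and the cascade.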

How the data were processed

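The labels give Illumina HiSeq sequencing of total RNA. Upstream tools, per the submitters' processing notes, were STAR 2.5.2, Cufflinks 2.0.2 and FastQC 0.10.0, on hg19 (GRCh37). How reads were trimmed, and whether strand was used, is not given in the sources used here, so reads of overlapping antisense genes may be included. The deposited files hold FPKM by the authors, with bounds and coverage, for 40255 transcripts a library; file names equal to sample titles linked files to samples. Transcripts with no gene name (894, or 1.07% to 1.31% of FPKM) were dropped and the rest summed into 23004 genes. Depth came from the ratio of coverage to FPKM and a read length of 51 nt, estimated from the bounds. For the 12407 genes with a mean of 1 FPKM or more, log2(FPKM + 1) was fitted in limma 3.58.1 (R 4.3.3, lmFit, then eBayes with a mean trend). Tests were two-sided, with no covariate, and adjusted by Benjamini-Hochberg to a threshold of 0.05. A check on simulated data drew independent normal values and raised only well-expressed genes. It thus does not cover low genes or a library that stands apart, and its outcome is not given here. No count test was run.

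The genes described, the lists and the tests were chosen with earlier results of these data known. Named genes were all 10 members, the up to 4 genes of each pathway list with the largest moderated t, and the 5 genes nearest to ETV4 in profile; others are said to be so. A planned exact permutation test of the ETV4 transcript share is not reported, because the share comes from the values that chose the gene. Motifs were chosen after the values were seen, and the GGAA core was added after the longer motifs had no match in the SPRY4 and DUSP6 promoters. A serum response element was also searched, then dropped; its counts are not given here. Alternatives covered the pseudocount, filter, scaling, transcript choice, eBayes trend, replicate block and each library left out. Figures used matplotlib 3.10.9 and Python 3.11.15.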

Additional observations from a re-analysis of the deposited data

How the results depend on the processing

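The 9 tested members kept a log2 fold change above 0 under every setting that held them, including each library left out. In the main setting it was above 0 in 6831 of the 12407 genes tested. Because the list was chosen on this contrast, nothing is read from that sign or from the member counts below. Genes called over the whole table numbered 10 higher and 9 lower; the counts were 0 and 0 with no filter and 1 and 0 with transcripts of at least 300 nt, and with the replicate block 14 and 15. Leaving out 1 library gave 3 to 44 higher and 10 to 49 lower, where the lone library of a group is assumed to vary like the others. Replicate numbers are not said to pair libraries; the difference between replicates 1 and 2 correlated across genes between the groups at 0.25. The separated members numbered 3 of 4 with a mean of at least 5 FPKM, since fewer genes were tested, and 7 to 9 with 1 library left out. Over all genes tested, the share separated higher was 16.2% in the main setting and 17.4% with a mean of at least 5 FPKM. It was 29.7% to 47% with 1 library left out, where separation comes more easily. The members' median log2 fold change ranged from 0.50 to 1.35 with 1 library left out. The cascade median became 0.05 with the highest transcript and ranged from -0.14 to 0.16 with 1 library left out. The median of other output genes ranged from 0.36 to 1.16, and their separated count from 9 to 16, a range added after seeing the data. The ETS median ranged from 0.10 to 0.18. The median of other Sprouty, SPRED and DUSP genes became 0.16 with a mean of at least 5 FPKM and ranged from -0.06 to 0.22 with 1 library left out. The ETV4 share difference was -30.2 points for the transcript highest in untreated libraries by construction, and 18.6 to 41.8 points with 1 library left out. With 1 library left out, the SPRY4 share difference of -11.5 points ranged from -23.0 to 0.00345 (without formaldehyde replicate 1), and the DUSP6 difference of 20.3 points from -0.00155 (without untreated replicate 1) to 40.6, so each rests on that library. That of SPRED2, 0.000125 points, ranged from -3.91e-05 to 0.000289. With the highest transcript, 6 of 10 members kept their place by level. Depth limits ETV1, at no more than 5 fragments in a library. The cause of these shifts was not tested except where said.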

Other observations

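The tested genes closest to ETV4 in their values over the 4 libraries were interferon-stimulated genes and a transglutaminase. ETV4 was listed for a large and steady difference in these same values, so genes near it have a like difference by construction. Whether they share regulation with ETV4 was not tested. Likeness was the root mean square distance between log2(FPKM + 1) profiles, each centred on its own mean, over 4 libraries and among 8682 genes with a mean of at least 5 FPKM and a transcript of at least 300 nt. OASL was nearest at 0.18, with 10.8 and 11.6 FPKM with formaldehyde and 2.98 and 2.51 FPKM untreated. IFI6 followed at 0.19, IFI44 at 0.23, TGM2 at 0.25 and ISG15 at 0.26. TGM2 stood at 12.2 and 7.56 FPKM with formaldehyde and at 1.31 and 1.98 FPKM untreated.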
